A study of Homo sapiens with 15 samples.

Results

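ANKRD1 and 8 other genes of the YAP pathway were followed in a triple-negative breast cancer line and its doxorubicin-resistant derivative. The 9 genes were ANKRD1, CCN1, CCN2, AMOTL2, AJUBA, LATS2, YAP1, WWTR1 and TEAD1, and all 9 were measured among 19775 genes. They were represented by 22 of 54675 Affymetrix probe sets, each annotated with 1 gene symbol. The set was chosen by the values of treated against untreated CALDOX, where ANKRD1 had the largest increase of all 19775 genes, to ask whether other YAP targets stood higher with it. The values of that comparison are therefore a description: differences, intervals and counts past the threshold are given without p-values, and nothing is read from them. The untreated CALDOX arrays are in it too, so p-values between the untreated lines are not independent of the choice.

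CALDOX is a line grown out of CAL51 by long exposure to 0.4 µM doxorubicin, an anthracycline that poisons topoisomerase II. The groups were treated CALDOX, which was carried for 3 drug-free passages and then given 4 µM doxorubicin for 24 h, untreated CALDOX, untreated CAL51, and CAL51 after 24 h and 48 h in 0.4 µM doxorubicin. Each group had 3 independent cultures, 1 array each. Maintenance medium of CALDOX contained the drug, and the labels leave unstated whether the untreated CALDOX cultures had been taken off it. CALDOX is 1 selected line. Both lines share the CAL51 background, and the treated lines received unequal doses, 4 µM in CALDOX and 0.4 µM in CAL51.

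YAP and its paralogue TAZ, the product of WWTR1, are coactivators that have no DNA-binding domain and act on genes through TEAD factors. The Hippo kinases LATS1 and LATS2 phosphorylate them and hold them in the cytoplasm. When the kinases are less active, or when cells are spread on a stiff matrix, YAP and TAZ enter the nucleus and raise target genes such as CCN1, CCN2 and ANKRD1. Several targets, among them LATS2 and AMOTL2, restrain the pathway in turn. ANKRD1, a muscle ankyrin repeat protein, is best known as a stress-induced gene of cardiac muscle.

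TEAD factors bind DNA at the core letters GGAATG, read on either strand. The 250 bases before the start site are shown for ANKRD1, which had the largest increase in treated CALDOX, for CCN2, an established YAP target that had none, and for AMOTL2, which had the next largest increase among the 9 genes. The sequences are from RefSeq on GRCh38.p14, 5′ to 3′ on the strand of the gene, and capitals mark GGAATG or its reverse complement.
ANKRD1, chr10:90921088-90921337, minus strand: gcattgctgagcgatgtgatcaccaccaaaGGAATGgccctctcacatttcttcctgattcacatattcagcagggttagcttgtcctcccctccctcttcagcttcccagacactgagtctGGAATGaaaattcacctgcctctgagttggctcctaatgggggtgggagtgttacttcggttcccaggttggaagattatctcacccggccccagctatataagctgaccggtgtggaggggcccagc
CCN2, chr6:131951373-131951622, minus strand: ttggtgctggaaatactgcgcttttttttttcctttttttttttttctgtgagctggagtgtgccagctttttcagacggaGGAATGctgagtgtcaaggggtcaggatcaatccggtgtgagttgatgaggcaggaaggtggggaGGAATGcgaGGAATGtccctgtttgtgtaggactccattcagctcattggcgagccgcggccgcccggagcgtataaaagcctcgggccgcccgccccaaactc
AMOTL2, chr3:134374448-134374697, minus strand: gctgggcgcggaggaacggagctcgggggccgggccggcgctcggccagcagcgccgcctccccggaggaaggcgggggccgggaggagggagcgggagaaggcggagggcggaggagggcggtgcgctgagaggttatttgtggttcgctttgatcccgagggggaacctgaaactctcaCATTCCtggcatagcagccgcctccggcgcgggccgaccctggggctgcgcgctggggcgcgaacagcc

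The ANKRD1 window held 2 copies of GGAATG, which began 220 and 128 bases before the start. The CCN2 window held 3 copies, beginning 169, 104 and 95 bases before it. The AMOTL2 window, that of the second annotated start, held 1 copy on the opposite strand, 69 bases before the start. The window of the first AMOTL2 start, which is not shown, held none. Of 35116 RefSeq windows of 250 bases, 11.9% held the letters at least once, 0.94% at least 2 times and 0.0826% at least 3 times. Of the 9 genes, 7 had entries, with 10 windows, because AMOTL2, AJUBA and WWTR1 each have 2 annotated starts. The letters were found in 5 windows: those of ANKRD1, CCN2 and YAP1, and 1 of the 2 windows each of AMOTL2 and AJUBA. The LATS2 window and both WWTR1 windows held none. The letters TGANTCA, where N is any base, were found 195 bases before the ANKRD1 start, as TGATTCA, and do not overlap these copies. They were in no other window of the set and in 6.57% of all windows. With any base allowed at N they are looser than an AP-1 site, and no such site is read from them. The CArG box bound by SRF was in none of the 10 windows and in 1.16% of all windows. These matches describe letters and not bound sites.

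All levels are log2 values as the authors deposited them, so 1 unit is a 2-fold difference. A difference is given as a ± b with the standard error of the limma fit and n = 3 arrays in each group. The threshold was a Benjamini-Hochberg adjusted p under 0.05 over all 19775 genes, and a gene that met it is said to be called. Arrays carry no detection calls here, and each array measured the RNA of a whole culture, so fewer cells expressing a gene and less RNA per cell cannot be told apart. Arrays within a group correlated at 0.9929 to 0.9978 over all probe sets, and arrays of different groups at 0.9789 to 0.9958.

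Of 5 epithelial markers, untreated CAL51 read 11.88 for EPCAM, 12.55 for KRT8, 14.11 for KRT18, 6.59 for KRT19 and 7.34 for CDH1. In CAL51 3 of the 5 were called higher at 24 h and 5 at 48 h, beside 5.77% and 10.5% of all genes. In treated CALDOX 2 (KRT19 and CDH1) met the threshold as higher, beside 4.82% of all genes. In untreated CALDOX against untreated CAL51 KRT19 (4.76) and EPCAM (0.44) were called higher and KRT8 (-0.47), KRT18 (-0.48) and CDH1 (-1.35) lower. Their summed level ranged over 55.92 to 56.46 in treated CALDOX and 55.12 to 55.47 in untreated CALDOX, and in CAL51 over 52.29 to 52.61 untreated, 54.40 to 55.74 at 24 h and 57.03 to 57.95 at 48 h. The part of these markers in the results was not tested. Among receptor genes, untreated CAL51 read 8.42 for ESR1, 6.14 for PGR and 10.03 for ERBB2. None was called in CAL51 under drug or between the untreated lines, and ERBB2 met the threshold as lower in treated CALDOX (-0.21). Receptor protein was not measured. Of 5 markers of striated muscle, the tissue in which ANKRD1 is best known, limma called 0 in CAL51 at 24 h and at 48 h, where 0 and 1 had an unadjusted p under 0.05, and 0 met the threshold in treated CALDOX. Their summed level ranged over 33.64 to 34.14 in treated CALDOX and 33.47 to 33.73 in untreated CALDOX. Among blood, endothelial and fibroblast markers LAPTM5 was called at 48 h, and COL3A1 in untreated CALDOX against CAL51, as was the muscle actin gene ACTC1. Of all genes, 10.1% were called in either direction at 24 h and 21.6% at 48 h. The share was 25.9% between the untreated lines and 10.3% in treated CALDOX.

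**Figure D1:**
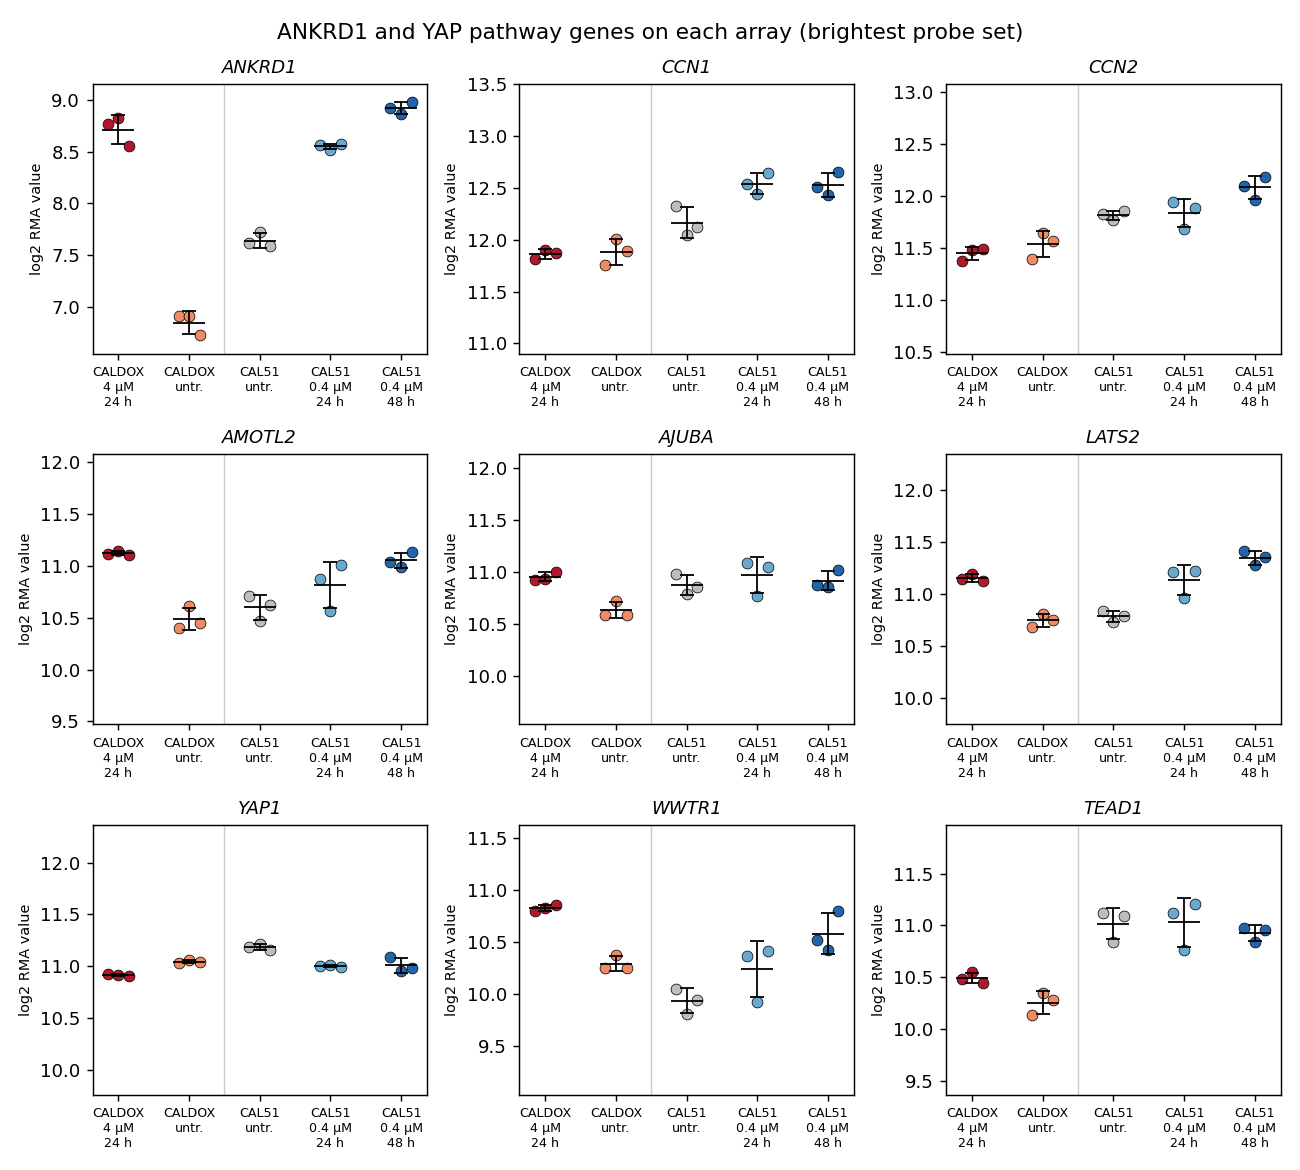
Level of each of the 9 genes on each of the 15 arrays (log2 RMA value, brightest probe set; every panel spans the same 2.6 log2 units). Points are arrays, and the bar and whiskers are the mean and SD of 3. ANKRD1 has its lowest level in untreated CALDOX, at 6.73 to 6.92, and reaches 8.55 to 8.82 in treated CALDOX, while CCN1 and CCN2 overlap between these groups.

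ANKRD1 read 8.76, 8.82 and 8.55 in treated CALDOX, against 6.91, 6.92 and 6.73 in untreated CALDOX. The groups lay far apart, and the difference was 1.86 ± 0.08, or 3.62-fold, rank 1 of 19775 genes. In untreated CAL51 it read 7.62, 7.72 and 7.59, at 24 h 8.56, 8.52 and 8.57, and at 48 h 8.92, 8.86 and 8.98. Untreated CALDOX and untreated CAL51 differed by -0.79 ± 0.08, a description because the untreated CALDOX arrays took part in the choice. In CAL51, whose arrays are not in the comparison that chose the gene, ANKRD1 rose by 0.91 ± 0.08 at 24 h (limma, adjusted p = 8.5e-07) and by 1.28 ± 0.08 at 48 h (adjusted p = 9.4e-09). Those are 1.87-fold and 2.42-fold, higher in 3 of 3 arrays each time. From 24 h to 48 h it rose by a further 0.37 ± 0.08 (adjusted p = 0.005).

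The order of ANKRD1 levels was CAL51 at 48 h (mean 8.92), treated CALDOX (8.71), CAL51 at 24 h (8.55), untreated CAL51 (7.64) and untreated CALDOX (6.85). The ranges of treated CALDOX and CAL51 at 24 h overlapped through the treated CALDOX array at 8.55, while the other 2 lay above all CAL51 24 h arrays, and this difference was not tested. The arrays of the other neighbours did not overlap, treated CALDOX ending at 8.82 and CAL51 at 48 h starting at 8.86. The 24 h response of CALDOX exceeded that of CAL51 by 0.95 ± 0.11, a value that includes the comparison that chose the gene and a 4 against 0.4 µM dose.

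CCN1 and CCN2, also known as CYR61 and CTGF, are secreted matricellular proteins and the most used readouts of YAP activity. Neither stood higher with ANKRD1 in treated CALDOX, a description because the comparison of treated with untreated CALDOX chose the set. CCN1 read 11.81, 11.90 and 11.87 in treated CALDOX, against 11.75, 12.00 and 11.89 in untreated CALDOX. The treated arrays lay inside the range of the untreated ones. The difference was -0.02 ± 0.09, with a 95% interval of -0.20 to 0.17. CCN2 read 11.38, 11.48 and 11.49 in treated CALDOX, against 11.40, 11.64 and 11.57 in untreated CALDOX. These groups overlapped as well, with a difference of -0.09 ± 0.08 and an interval of -0.26 to 0.09.

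In CAL51 both CCN genes were called higher at 48 h. CCN1 read 12.33, 12.04 and 12.12 in untreated cells, 12.54, 12.44 and 12.64 at 24 h and 12.51, 12.43 and 12.65 at 48 h. It rose by 0.37 ± 0.09 at 24 h (limma, adjusted p = 0.011) and by 0.36 ± 0.09 at 48 h (adjusted p = 0.0057). The 24 h call was lost without untreated CAL51 replicate 2 (adjusted p = 0.055) or CAL51 24 h replicate 3 (0.051). CCN2 read 11.82, 11.76 and 11.85 in untreated cells, 11.94, 11.68 and 11.88 at 24 h and 12.10, 11.96 and 12.19 at 48 h. At 24 h its arrays overlapped those of untreated cells, 0.02 ± 0.08 (adjusted p = 0.92). At 48 h it rose by 0.27 ± 0.08 (adjusted p = 0.027), a call lost without any 1 of 4 arrays (adjusted p up to 0.11, without CAL51 48 h replicate 3). Both genes were lower in untreated CALDOX than in untreated CAL51, CCN1 by -0.28 ± 0.09 (adjusted p = 0.023) and CCN2 by -0.28 ± 0.08 (adjusted p = 0.019). Each of these calls was lost without some single arrays of either group (adjusted p up to 0.12 for CCN1 and 0.10 for CCN2, both without untreated CALDOX replicate 1).

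AMOTL2, an angiomotin-like junction protein that binds YAP, had the next largest difference after ANKRD1 in the resistant line. It read 11.11, 11.14 and 11.10 in treated CALDOX, against 10.40, 10.61 and 10.44 in untreated CALDOX. No arrays overlapped, and the difference was 0.63 ± 0.10, or 1.55-fold. In CAL51 it read 10.71, 10.47 and 10.62 in untreated cells, 10.87, 10.57 and 11.01 at 24 h and 11.04, 10.98 and 11.13 at 48 h. The 24 h arrays overlapped the untreated ones because replicate 2 was low, and the difference of 0.21 ± 0.10 did not pass (limma, adjusted p = 0.20). Without that array it was 0.34 (adjusted p = 0.017). At 48 h AMOTL2 rose by 0.45 ± 0.10 (adjusted p = 0.0027). Its level in untreated CALDOX and untreated CAL51 overlapped, -0.11 ± 0.10 (adjusted p = 0.48).

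LATS2 encodes a Hippo kinase that is itself a YAP target and so closes a feedback loop. It read 11.14, 11.19 and 11.12 in treated CALDOX, against 10.68, 10.80 and 10.74 in untreated CALDOX. The groups did not overlap, and the difference was 0.41 ± 0.07. In CAL51 it read 10.83, 10.73 and 10.78 in untreated cells, 11.21, 10.96 and 11.22 at 24 h and 11.41, 11.27 and 11.35 at 48 h. It rose by 0.35 ± 0.07 at 24 h (limma, adjusted p = 0.0047) and by 0.56 ± 0.07 at 48 h (adjusted p = 2.5e-05). On the brightest probe set, every treated CAL51 array lay above every untreated CAL51 array. Untreated CALDOX and untreated CAL51 differed by -0.04 ± 0.07 (adjusted p = 0.78).

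AJUBA, a LIM-domain scaffold that inhibits LATS kinases, differed little in the parental line. Its arrays ranged over 10.93 to 11.01 in treated CALDOX and 10.59 to 10.73 in untreated CALDOX, a difference of 0.32 ± 0.08 without overlap. In CAL51 it ranged over 10.79 to 10.98 in untreated cells, 10.77 to 11.09 at 24 h and 10.86 to 11.02 at 48 h. These overlapped, at 0.09 ± 0.08 (limma, adjusted p = 0.59) and 0.04 ± 0.08 (adjusted p = 0.80). Its level in untreated CALDOX was lower than in untreated CAL51 by -0.24 ± 0.08 (adjusted p = 0.042), a call that was lost in 7 of the 15 fits that left out 1 array (adjusted p up to 0.16, without untreated CAL51 replicate 1).

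**Figure D2:**
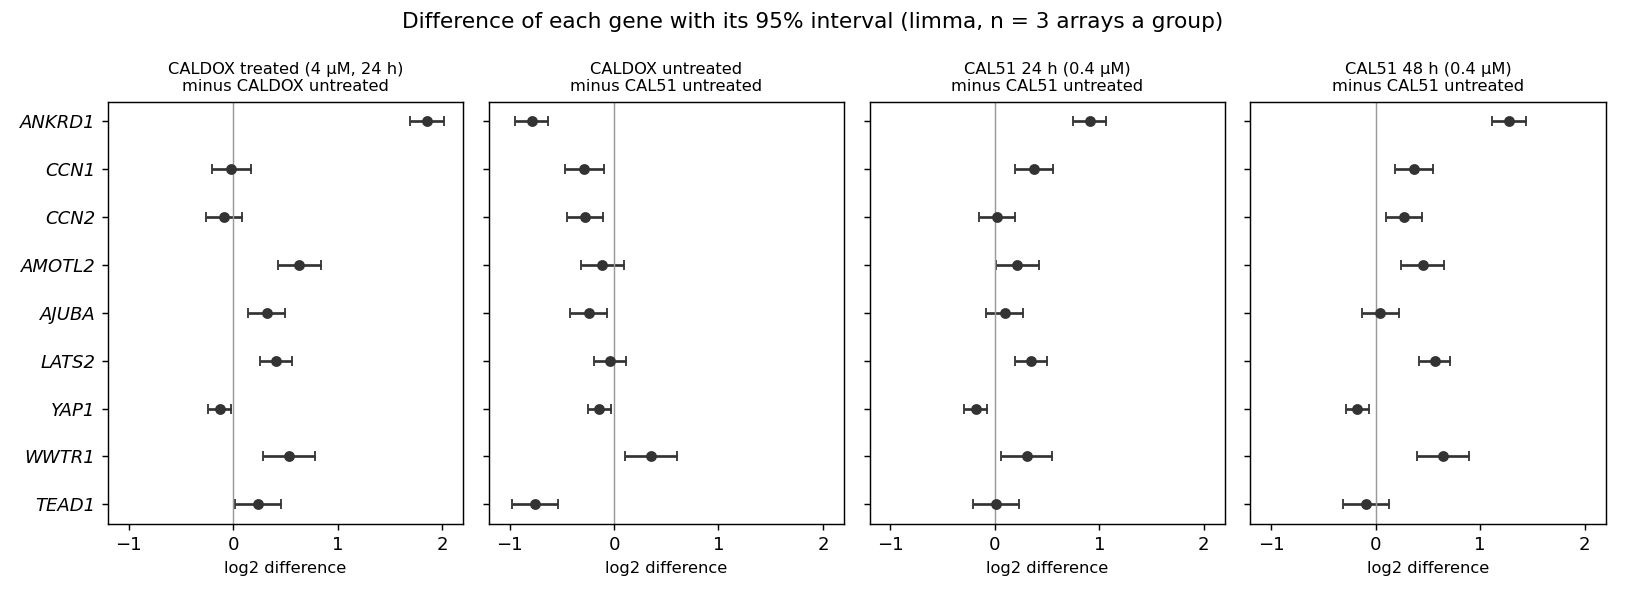
Log2 difference of each of the 9 genes in 4 comparisons, with its 95% interval (limma, n = 3 arrays a group). The horizontal axis is the first group of each panel title minus the second. In treated CALDOX, a description because that comparison chose the set, ANKRD1 lies at 1.86 and CCN1 and CCN2 span 0. Untreated CALDOX against CAL51 has ANKRD1 and TEAD1 farthest below 0.

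In CAL51 under drug the 2 coactivator genes differed in opposite directions on their brightest probe sets. YAP1 ranged over 10.91 to 10.93 in treated CALDOX and 11.03 to 11.06 in untreated CALDOX, a small difference of -0.13 ± 0.05 without overlap. In CAL51 it ranged over 11.16 to 11.22 in untreated cells, 11.00 to 11.02 at 24 h and 10.96 to 11.09 at 48 h. It was lower by -0.18 ± 0.05 at 24 h (limma, adjusted p = 0.035) and by -0.18 ± 0.05 at 48 h (adjusted p = 0.022). Neither call was firm: with the mean of the 3 YAP1 probe sets they were -0.13 (adjusted p = 0.15) and -0.11 (adjusted p = 0.14), and fits without certain single arrays also ended them (adjusted p up to 0.098 at 24 h, without untreated CAL51 replicate 2, and 0.089 at 48 h, without CAL51 48 h replicate 2).

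WWTR1, which encodes TAZ, was called higher in CAL51 at 48 h but not at 24 h on its brightest probe set. It read 10.80, 10.83 and 10.86 in treated CALDOX, against 10.25, 10.38 and 10.26 in untreated CALDOX. No arrays overlapped, and the difference was 0.54 ± 0.12. In CAL51 it read 10.05, 9.81 and 9.95 in untreated cells, 10.37, 9.93 and 10.42 at 24 h and 10.53, 10.42 and 10.80 at 48 h. At 24 h the difference of 0.30 ± 0.12 did not pass (limma, adjusted p = 0.12), but without the low CAL51 24 h replicate 2 it was 0.46 (adjusted p = 0.0068). At 48 h WWTR1 rose by 0.65 ± 0.12 (adjusted p = 0.00068). WWTR1 was the 1 gene of the set called higher in untreated CALDOX than in untreated CAL51, by 0.36 ± 0.12 (adjusted p = 0.032), a call lost in 5 of those fits (adjusted p up to 0.13, without untreated CAL51 replicate 2).

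TEAD1, a DNA-binding partner of both coactivators, was low in the resistant line. It read 10.48, 10.55 and 10.45 in treated CALDOX, against 10.14, 10.35 and 10.28 in untreated CALDOX. The arrays did not overlap, although the difference was only 0.24 ± 0.10. In CAL51 it read 11.12, 10.84 and 11.09 in untreated cells, 11.12, 10.76 and 11.21 at 24 h and 10.98, 10.84 and 10.96 at 48 h, with no call (limma, 0.01 ± 0.10, adjusted p = 0.97, and -0.09 ± 0.10, adjusted p = 0.60). Untreated CALDOX was lower than untreated CAL51 by -0.76 ± 0.10 (adjusted p = 2.9e-05), or 0.59-fold. All 3 TEAD1 probe sets were called lower there, at -0.55 to -0.76. In CAL51 1 of the other 2 probe sets was called higher at 24 h, at 0.29 ± 0.08 (adjusted p = 0.025), and lower from 24 h to 48 h, at -0.29 ± 0.08 (adjusted p = 0.033).

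Counted over the 9 genes, 5 met the threshold with a higher level in treated CALDOX and 0 with a lower one, beside 10.3% of all genes called in either direction, 4.82% higher and 5.5% lower. They were ANKRD1, AMOTL2, AJUBA, LATS2 and WWTR1. The arrays did not overlap for 7 of the 9, and for 30.8% of all genes. Nothing is read from these counts, since this comparison chose the set. In CAL51 at 24 h 3 rose (ANKRD1, CCN1 and LATS2) and 1 fell (YAP1), beside 10.1% of all genes called, 5.77% higher and 4.34% lower. The arrays did not overlap for these 4, and for 23.3% of all genes. Only 2 of the 9 were called without untreated CAL51 replicate 2 or without CAL51 24 h replicate 3. At 48 h 6 rose (ANKRD1, CCN1, CCN2, AMOTL2, LATS2 and WWTR1) and 1 fell (YAP1), beside 21.6% of all genes, 10.5% higher and 11.2% lower. The arrays did not overlap for these 7, and for 33.6% of all genes. From 24 h to 48 h ANKRD1 alone was called, beside 9.71% of all genes, 4.37% higher and 5.34% lower, but 3 were called without CAL51 24 h replicate 3. The 48 h arrays lay above the 24 h arrays without overlap for 4 of the 9 (ANKRD1, CCN2, LATS2 and WWTR1), and 23.1% of all genes did not overlap in either direction. In untreated CALDOX against untreated CAL51, apart from ANKRD1, 1 was called higher (WWTR1) and 4 lower (CCN1, CCN2, AJUBA and TEAD1), beside 25.9% of all genes, 14.2% higher and 11.7% lower. The untreated CALDOX arrays are also in the comparison that chose the set, so these calls are not independent of the choice. The lower level of ANKRD1 past the threshold is a description. The arrays did not overlap for 7 of the 9, these genes with ANKRD1 and YAP1, and for 36.9% of all genes. With ANKRD1 counted, 6 of the 9 met the threshold, against 3 without untreated CAL51 replicate 1 or 3 or untreated CALDOX replicate 3, and 2 without untreated CALDOX replicate 1. The median over the 9 genes was 0.32 in treated CALDOX, 0.21 and 0.36 in CAL51 at 24 h and 48 h and -0.24 in untreated CALDOX against CAL51, while over all genes it was -0.01, -0.03, -0.02 and 0.00.

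The genes of some arrays deviated together. CAL51 24 h replicate 2 held the lowest value of its group for 8 of 9 genes, CAL51 48 h replicate 2 for 9 and untreated CALDOX replicate 1 for 8. In each of these 3 groups that array also had the smallest spread over all probe sets, with SDs of 1.937, 1.942 and 1.944, against 1.967 to 2.005 on the other arrays of those groups. In untreated CAL51 the lowest values of 7 genes fell on replicate 2, while replicate 3 had the smallest SD, 1.952 against 1.958. With the spread of each array as a covariate, a setting added after the data were seen, 5 of 9 genes were called at 24 h, 7 at 48 h, 5 from 24 h to 48 h, 7 between the untreated lines and 6 in treated CALDOX. What part the arrays' spread had in single calls was not tested otherwise.

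Where a gene had several probe sets, each was also fitted by itself, with p-values adjusted over all probe sets except the 62 controls. Both CCN1 probe sets gave the same signs in these comparisons, and the second rose by 0.59 ± 0.07 at 24 h (limma, adjusted p = 3.6e-05) and by 0.47 ± 0.07 at 48 h (adjusted p = 0.00017) in CAL51, and differed by -0.06 ± 0.07 in treated CALDOX. The 3 WWTR1 probe sets stood 0.35 to 0.54 higher in treated CALDOX, and 2 of them were called at 24 h in CAL51, where the brightest one was not. In untreated CALDOX against CAL51 those 2 WWTR1 probe sets differed by 0.06 and 0.11 and were not called, so the call between the lines rests on the brightest one. TEAD1 disagreed among its probe sets in treated CALDOX, with 0.50 and 0.51 on the other 2 against 0.24 on the brightest. Of the 4 LATS2 probe sets, 2 were called in CAL51 at 24 h (0.35 and 0.30) and at 48 h (0.56 and 0.42), and 2 were not, at 0.13 and 0.09 at 24 h and 0.04 and 0.06 at 48 h. In treated CALDOX the first 2 met the threshold (0.41 and 0.39) and the other 2 did not (0.28 and 0.10). Of the 3 YAP1 probe sets, 1 gave -0.01 at 24 h and 0.00 at 48 h in CAL51, where the other 2 gave -0.16 to -0.18, and with every probe set tested none of the 3 was called (adjusted p of 0.064 and 0.051 for the brightest). Of the 4 AJUBA probe sets, the dimmest gave 0.03 in treated CALDOX, where the other 3 gave 0.27 to 0.32. Only the brightest met the threshold there. Between the untreated lines the brightest AJUBA probe set did not pass in this fit (limma, adjusted p = 0.059), while a dimmer probe set was called lower (adjusted p = 0.035).

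The wider pathway was read from lists that were set down with earlier results of these data known. A 22-gene YAP target signature shares 5 genes with the set, and 16 of its other 17 genes were tested. In treated CALDOX 6 of these 16 met the threshold with a higher level and 0 with a lower one, with a median of 0.05, beside 4.82% and 5.5% of all genes, a description as for the set. GADD45A, a stress gene that p53 also induces, stood 0.94 ± 0.08 higher, CRIM1, a membrane protein that binds BMPs, 0.75 ± 0.07, MYOF, a membrane repair protein, 0.67 ± 0.06, and F3, tissue factor, 0.30 ± 0.08. DOCK5 (0.29 ± 0.08) and PTPN14 (0.20 ± 0.05) were the other 2. In CAL51 at 24 h 8 of 16 rose and 0 fell, with a median of 0.25, beside 5.77% and 4.34% of all genes. For the whole signature the count was 11 of 21, and 5 with only the arrays compared. GADD45A (1.04 ± 0.08), the receptor kinase gene AXL (0.54 ± 0.08), MYOF (0.52 ± 0.06) and CRIM1 (0.47 ± 0.07) had the largest changes. At 48 h 5 rose and 1 fell, the secreted matrix protein gene CCDC80 (-0.42 ± 0.07, limma, adjusted p = 0.00053), with a median of 0.15, beside 10.5% and 11.2% of all genes. GADD45A (1.22 ± 0.08), MYOF (0.65 ± 0.06) and CRIM1 (0.45 ± 0.07) again had the largest increases. From 24 h to 48 h AXL fell by 0.66 ± 0.08 on the log2 scale (adjusted p = 0.00017) and CCDC80 by 0.26 (adjusted p = 0.038).

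In untreated CALDOX against untreated CAL51 9 of the 16 genes were lower and 3 higher, with a median of -0.27, beside 11.7% and 14.2% of all genes. CCDC80 (-1.73 ± 0.07, limma, adjusted p = 3.3e-11) and F3 (-1.33 ± 0.08, adjusted p = 1.9e-09) were lower. IGFBP3, which binds insulin-like growth factors, was higher by 1.42 ± 0.06 (adjusted p = 4.7e-11) and the transcription factor gene FOXF2 by 0.78 ± 0.14 (adjusted p = 0.00032).

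**Figure D3:**
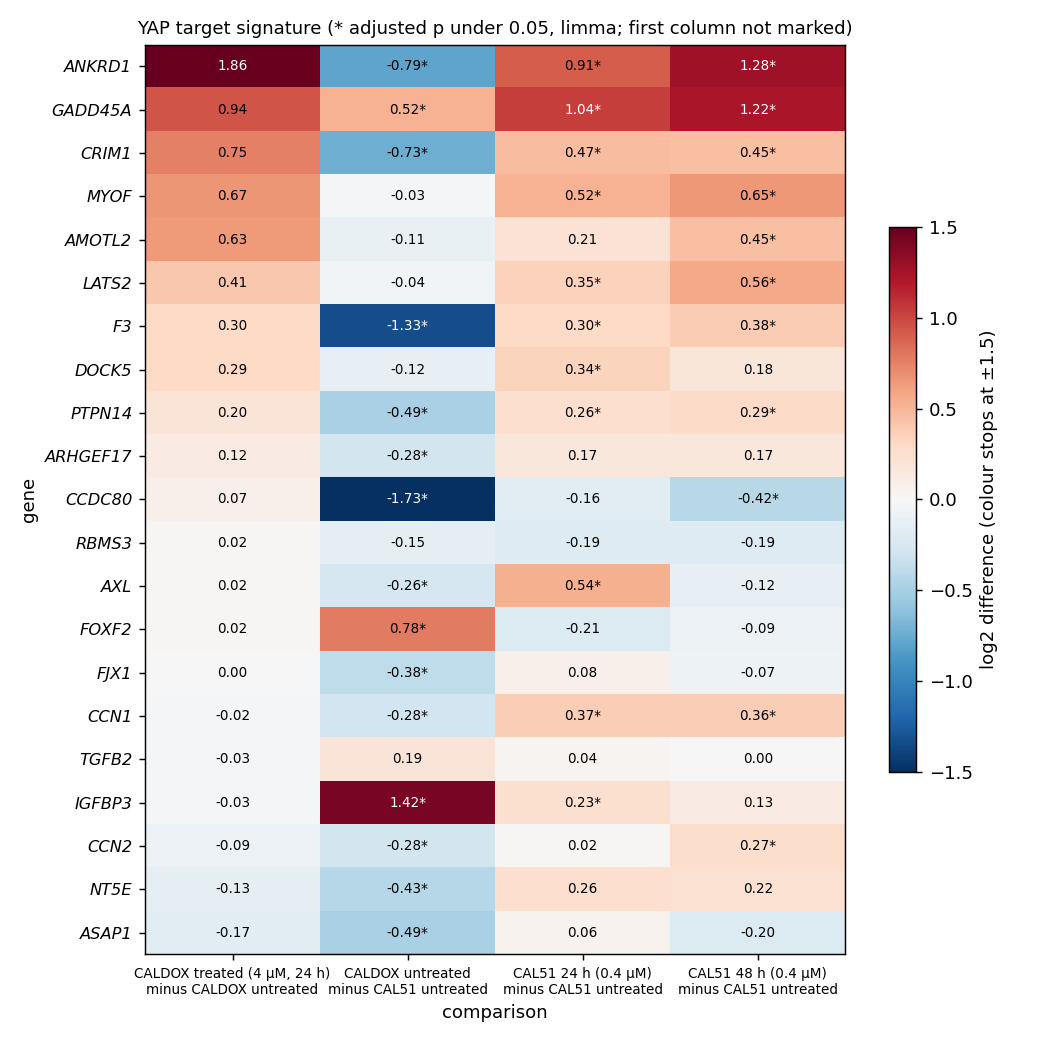
Log2 differences of the 21 measured genes of the YAP target signature in 4 comparisons, ordered by treated against untreated CALDOX. Colour and printed numbers are the same values, and stars mark an adjusted p under 0.05 except in the first column. ANKRD1, GADD45A, CRIM1, MYOF and AMOTL2 head the first column at 0.63 to 1.86, and CCN1 and CCN2 stand near 0.

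Changes among Hippo kinases and adaptors stayed within 0.77 in size. Of 22 such genes, 5 met the threshold as higher in treated CALDOX, beside 4.82% of all genes. In CAL51 4 rose and 0 fell at 24 h, beside 5.77% and 4.34% of all genes. At 48 h 4 rose and 2 fell, beside 10.5% and 11.2%, a share near that of all genes. WWC1, the scaffold KIBRA that activates LATS kinases, rose by 0.61 ± 0.06 at 48 h (limma, adjusted p = 2.1e-06) and stood 0.33 ± 0.06 higher in treated CALDOX. AMOTL1, a relative of AMOTL2, rose by 0.35 ± 0.07 at 24 h (adjusted p = 0.0064) and by 0.44 ± 0.07 at 48 h (adjusted p = 0.00041). It was also higher in untreated CALDOX than in untreated CAL51, by 0.77 ± 0.07 (adjusted p = 7.8e-07), as was the atypical cadherin gene FAT1 (0.42 ± 0.08, adjusted p = 0.0012). RASSF1 (-0.36 ± 0.075, adjusted p = 0.0014) and STK4 (-0.21 ± 0.06, adjusted p = 0.0095) were lower there. Between the untreated lines 4 of the 22 were higher and 2 lower, beside 14.2% and 11.7% of all genes, a share near that of all genes. SAV1, the scaffold of the upstream kinases, stood 0.32 ± 0.06 higher in treated CALDOX. STK4, one of those kinases, fell from 24 h to 48 h by 0.25 ± 0.06 on the log2 scale (adjusted p = 0.01). The 24 h count was 1 or 2 without any 1 untreated CAL51 array or CAL51 24 h replicate 1 or 3. It was 2 without treated CALDOX replicate 1 or 2, arrays outside that comparison. The count in treated CALDOX was 2 or 3 without any 1 array of either group compared.

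Among 7 other TEAD and VGLL genes TEAD3 rose in CAL51, by 0.46 ± 0.11 at 24 h (limma, adjusted p = 0.012) and by 0.39 ± 0.11 at 48 h (adjusted p = 0.017). VGLL4, a competitor of YAP for TEAD binding, rose by 0.24 ± 0.07 at 48 h (adjusted p = 0.024), and TEAD4 was lower in untreated CALDOX by -0.23 ± 0.06 (adjusted p = 0.0045). In treated CALDOX TEAD2 differed by -0.25 ± 0.07 and TEAD3 by 0.30 ± 0.11. The TEAD3 call at 24 h was lost without untreated CAL51 replicate 3 or CAL51 24 h replicate 3. At 48 h 2 of the 7 rose and 1 fell, beside 10.5% and 11.2% of all genes. TEAD4 was the gene that fell, at -0.197 ± 0.055 (limma, adjusted p = 0.016). This count of 3 was 1 without untreated CAL51 replicate 2 or 3 or CAL51 48 h replicate 1 or 3. The relatives CCN3, CCN4, CCN5, CCN6, ANKRD2 and ANKRD23 had 0 calls of 6 in the limma fit of any of the 5 comparisons, with differences of -0.18 to 0.15. In the 4 comparisons other than treated against untreated CALDOX, 0 of the 6 had an unadjusted p under 0.05, and 1 was called between the untreated lines without untreated CAL51 replicate 2.

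SRF with its cofactors of the MRTF family responds to actin polymerization and shares targets with YAP. The lines stood far apart on the list of SRF and MRTF genes. In untreated CALDOX against untreated CAL51 17 of 18 tested were lower and 1 higher, with a median of -0.98, beside 11.7% and 14.2% of all genes. FHL2, a LIM-domain cofactor, was lower by -2.47 ± 0.15 (limma, adjusted p = 2.7e-09) and TAGLN, an actin-binding smooth muscle protein, by -1.97 ± 0.06 (adjusted p = 3.1e-13). The exception was MRTFB, one of the cofactors, at 0.49 ± 0.09 (adjusted p = 0.00041). In treated CALDOX 6 of 18 met the threshold as higher and 1 as lower, with a median of 0.18, beside 4.82% and 5.5% of all genes. ACTA2, smooth muscle actin, stood 0.82 ± 0.07 higher there and FHL2 0.44 ± 0.15, which did not meet it. In CAL51 at 24 h 5 rose and 0 fell, beside 5.77% and 4.34% of all genes, among them ACTG2 (0.57 ± 0.08, adjusted p = 0.00038) and ACTA2 (0.52 ± 0.07, adjusted p = 0.00014). At 48 h 4 rose and 2 fell, beside 10.5% and 11.2% of all genes, with CALD1 at 0.52 ± 0.08 (adjusted p = 0.00027) and ZYX at -0.52 ± 0.06 (adjusted p = 1.1e-05). From 24 h to 48 h 0 rose and 4 fell, beside 4.37% and 5.34% of all genes, among them ZYX (-0.48 ± 0.06, adjusted p = 0.00018) and ACTG2 (-0.36 ± 0.08, adjusted p = 0.013), and 2 fell without CAL51 24 h replicate 3.

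**Figure D4:**
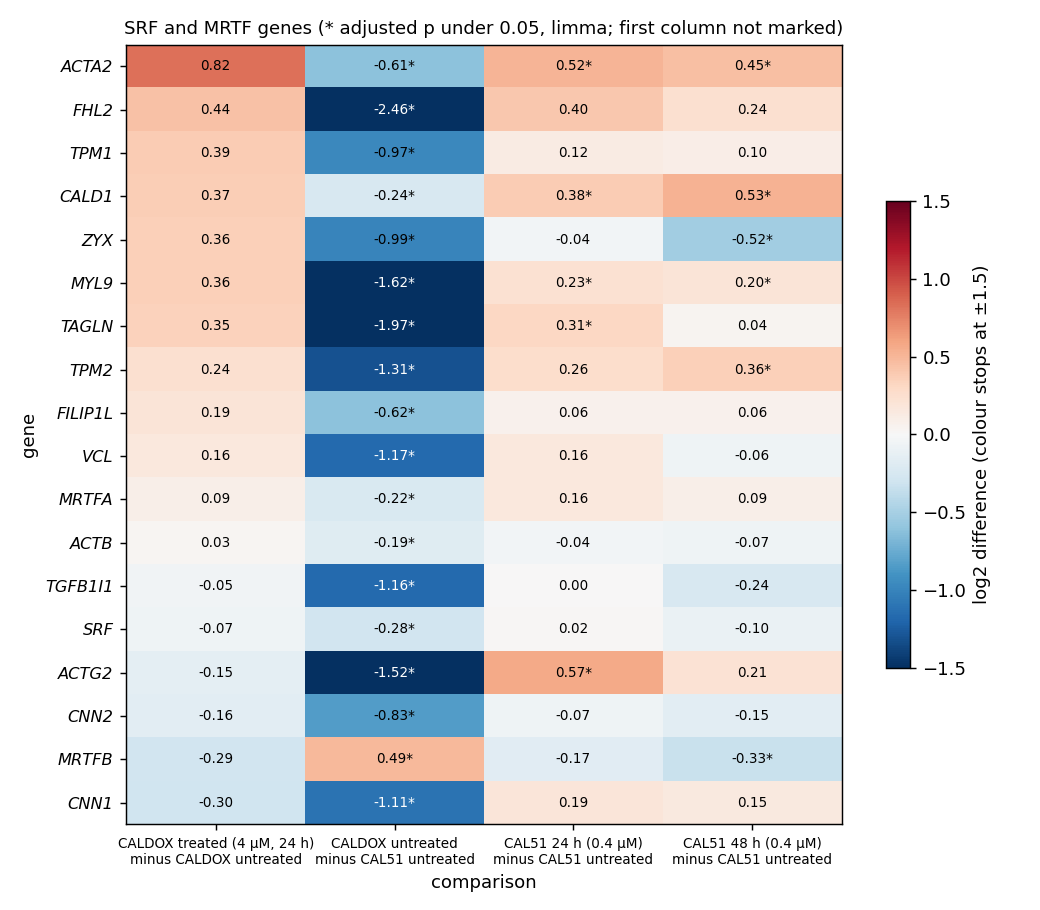
Log2 differences of the 18 measured SRF and MRTF genes in 4 comparisons, ordered by treated against untreated CALDOX. Stars mark an adjusted p under 0.05 except in the first column. In the second column 17 of 18 genes are below 0, and ACTA2 heads the first column at 0.82.

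The genes whose levels followed ANKRD1 most closely were ranked by Pearson's r over the 15 arrays, among 928 genes whose group means span at least 1 log2 unit. The 15 arrays fall into 5 groups, so r mostly reads group means and is given as a description. The closest of these 928 were ACTA2 (r = 0.93), RGS5 (0.93), SLC2A12 (0.92), MATN2 (0.92) and IL18 (0.91). They stood 0.77 to 1.26 higher in treated than in untreated CALDOX, which the ranking favours because it used those arrays. The most unlike were LHFPL3 (-0.88), PLCXD1 (-0.85) and CA4 (-0.85). Within the set, r with ANKRD1 was 0.91 for LATS2, 0.86 for AMOTL2, 0.74 for AJUBA, 0.54 for WWTR1, 0.52 for CCN1, 0.47 for TEAD1, 0.39 for CCN2 and -0.51 for YAP1. Over all other genes the middle 90% of r ran from -0.67 to 0.61.

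**Figure D5:**
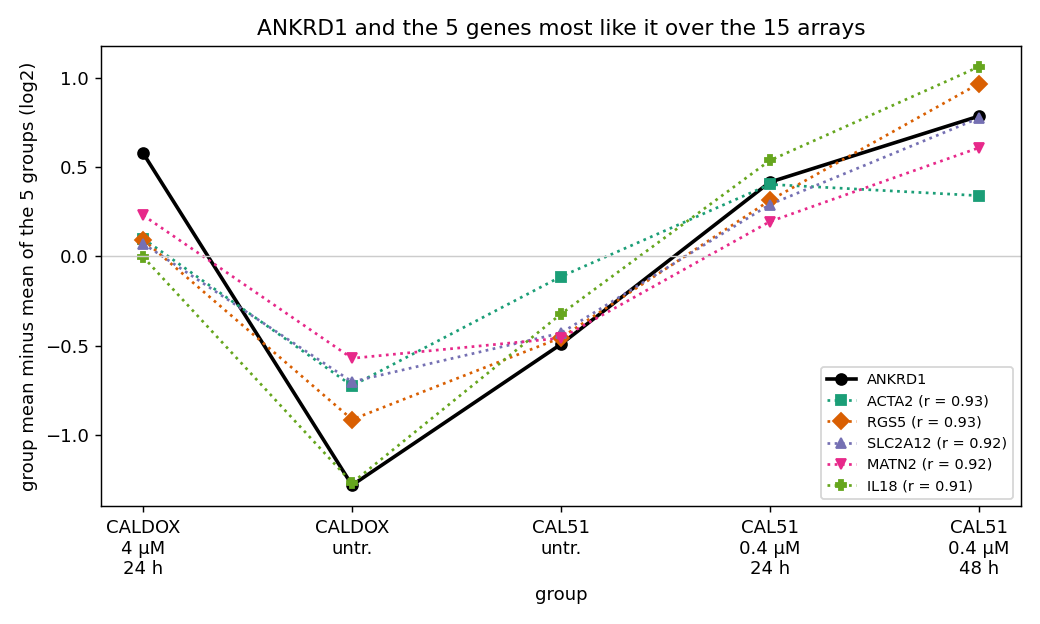
Group means of ANKRD1 (black) and of the 5 genes most like it over the 15 arrays among the 928 whose group means span at least 1 log2 unit, each less its own mean over the 5 groups (log2). The 6 genes share the lowest point in untreated CALDOX, which a choice by r favours, and ANKRD1 stands above the others in treated CALDOX.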

How the data were processed

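Total RNA of 15 cultures was hybridized to 1 array each. The deposited values are log2 RMA values of 54675 probe sets: RMA corrects background, quantile normalizes and summarizes probes, and is named, without a version, in the submitters' processing notes. The log2 scale was read from the range, 3.083 to 14.762. The scanner files were not used here. The 62 control probe sets were left out. Each of the 19775 genes took its brightest single-symbol probe set (highest mean of the 15 arrays). Symbols came from the platform annotation, checked by gene ID against RefSeq.

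limma 3.58.1 (R 4.3.3) fitted a mean per group, using every array (10 residual and 5.397 prior degrees of freedom), with two-sided Benjamini-Hochberg adjusted p-values per comparison, and was tested on simulated data. The members and lists were chosen with earlier results of these data known. Named list genes are the 4 (target signature) or 2 (other lists) with the largest absolute difference in a comparison. Genes outside that rule, such as PTPN14, DOCK5, MRTFB and RASSF1, were named after their values were seen. NUAK2, ACTG1, FHL1, FLNA and TNNT2 were not analysed here. Alternatives varied the arrays in the fit, array weights, normalization, probe set summary, a dim filter, the replicate number as a block and each array left out.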

Additional observations from a re-analysis of the deposited data

How the results depend on the processing

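Precision is limited by 3 arrays a group, and the table gives no signal over background, so dim genes may understate changes. ANKRD1 kept its direction and call at 24 h and 48 h in CAL51 under each alternative run. Deviations of same-numbered arrays correlated at -0.46 to 0.46, over 0.1 in 2, 4 and 2 of 10 pairs of groups for numbers 1, 2 and 3, so the numbers were not taken as pairs. Replicate 2 held most of the lowest values of the 9 genes in each CAL51 group. With the replicate block 3 of the 9 genes were called at 24 h, 7 at 48 h, 1 from 24 h to 48 h, 6 between the untreated lines and 5 in treated CALDOX.

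Genes called at 24 h, 1999 of all genes, were 870 with only the arrays compared, 3200 with array weights and 3099 with the spread of each array as a covariate. From 24 h to 48 h 1920 became 565 with only the arrays compared and 2978 with the spread. In treated CALDOX 2041 became 4961 with array weights. Higher and lower calls at 24 h were 1453 and 1646 with the spread, against 1141 and 858. Of the 9 genes, 1 was called at 24 h with only the arrays compared. From 24 h to 48 h 5 were called with repeated quantile normalization, 3 with dim genes left out and 5 with the spread. Repeated quantile normalization called 2382 of all genes there. Leaving out 1 array gave 2 to 6 of the 9 genes at 24 h, 5 to 7 at 48 h, 1 to 3 from 24 h to 48 h, 2 to 7 between the untreated lines and 4 to 5 in treated CALDOX. Over all genes it gave 1355 to 2117, 3507 to 4754, 1236 to 1951, 4341 to 5550 and 1341 to 2338. Fewer arrays carry less power. Of the YAP target signature 11 genes were called at 24 h and 5 with only the arrays compared; from 24 h to 48 h 3 became 8 with quantile normalization or the spread and 5 without dim genes. SRF and MRTF genes called were 8, against 5, at 24 h with array weights or the spread, and 12, against 7, in treated CALDOX with weights. TEAD and VGLL genes called between the untreated lines were 2 to 4 with weights, quantile normalization or the spread, against 1. In the main fit 25.9% of all genes were called there. The cause of the other shifts was not tested. No called difference of the 9 genes reversed under the alternatives run.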
